A study of Mus musculus with 3 samples.

Results

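The cells described here are those named Stroma1 in the cluster assignments that the authors deposited for 3 mouse melanomas, 473 of 12670 cells in all. Of these, 472 came from the untreated tumor, 1 came from the tumor that had regressed under vemurafenib and 0 came from the tumor that had progressed under it. The tumors arose in C57BL/6 mice that carried a conditionally activated Braf allele and Tyr.CreER, and the study crossed some animals to a Rosa26 reporter of recombination, tdTomato. The Tyr promoter directs the recombinase to melanocytes, and recombination in stromal cells was not measured here. Vemurafenib, an inhibitor of the mutant Braf kinase, was given to the regressed and the progressed groups only. Each group held 1 tumor, tumors were induced with 4-OH tamoxifen on the flank skin of young adult mice, age at collection was not given in the labels, and no spread between animals could be measured.

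Fibroblasts build the collagen matrix of the dermis and of tumors, and they also secrete chemokines, complement proteins and growth factor regulators. After signals such as interleukin-1, TNF or interleukin-6, fibroblasts can make acute phase proteins (serum amyloid A, haptoglobin), neutrophil-attracting CXC chemokines and matrix proteases, a state that is usually called inflammatory. Wnt antagonists such as Wif1 and the Sfrp proteins bind Wnt ligands outside the cell, and insulin-like growth factor binding proteins such as Igfbp5 hold IGF1 and IGF2.

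Stroma1 made up 18.0% of the 2628 stromal cells of the untreated tumor (95% exact binomial interval 16.5 to 19.5%) and 11.5% of its 4095 cells. In the regressed tumor the share was 0.0521% of 1918 stromal cells (interval 0.00132 to 0.290%). In the progressed tumor it was 0 of 3422, which allows a share of up to 0.0877% by a limit of 3 counts, or 0.108% by the exact interval. The intervals cover counting error only. Since the cluster lay in a single library, the cell state, the animal and the treatment cannot be told apart. The lone regressed cell had 3376 UMIs (unique molecular identifiers, which count captured RNA molecules), with 67 of Dcn, 26 of Col3a1, 18 of Col1a1, 12 of C3 and 3 of Sfrp4, and none of Saa3, Cxcl5, Wif1 or Igfbp5. All values below are from the untreated tumor unless another is named. Its Stroma1 cells held 872 to 21548 UMIs each, with a median of 5553.5 UMIs and 2379.5 genes, and 2951608 UMIs in sum. The comparison group was the 2156 untreated cells of the other 9 Stroma clusters, of which Stroma2 to Stroma6 had at least 50 cells each and Stroma9 had 0 in this tumor.

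The fibroblast part of the name was borne out by marker genes. All 9 fibroblast markers were detected and summed to 39040 CPM (UMIs of the genes scaled to a total of 1000000) in Stroma1, against 51078 CPM in the other stroma. Dcn stood at 15916 CPM, Col1a1 at 4279 CPM, Pdgfra at 261 CPM and Fap at 64.0 CPM. Pericyte and smooth muscle markers summed to 154 against 297 CPM, and endothelial markers to 164 against 129 CPM. Cdh5 made up 48.2% of the endothelial sum, and without it the log2 ratio was 1.04 (0.82 to 1.27), with Emcn more than 2-fold higher. The endothelial sum was 254 CPM in Stroma4 and 4949 CPM in the blood vessel cluster. Macrophage and monocyte markers summed to 53.9 against 52.5 CPM, far under the 12050 CPM of the macrophage cluster. Neutrophil markers summed to 792 CPM in Stroma1, 868 CPM in the other stroma and 237149 CPM in neutrophils. For T and NK cells (2.37 against 3.33 CPM), mast cells (13.9 against 16.3), dendritic cells (91.1 against 84.9), melanocytes and melanoma cells (19.0 against 23.2), keratinocytes (182 against 187), Schwann cells (179 against 188), red blood cells (35.9 against 38.3), dividing cells (9.83 against 11.7) and chondrocyte and bone cells (110.4 against 109.0) the summed CPM of Stroma1 and of the other stroma lay close together. Adipocyte markers were lower, at 13.6 against 45.3 CPM. Mlana, Tyrp1, Tyr, tdTomato, Flt3, Ccnb1, Adipoq, Lep, Cidec, Acan, Ibsp and Bglap had 0 UMIs in Stroma1. A UMI of Ptprc, Pecam1, Krt5, Krt14, Mlana or tdTomato was present in 188 Stroma1 cells (39.8%) and in 757 other stromal cells (35.1%).

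The inflammatory part of the name applied to the sum of the cells more than to each cell. The 6 genes given as markers of the cluster together reached 8284 CPM in Stroma1 and 640.0 CPM in the other stroma, and 5 of them were higher there than in each of Stroma2 to Stroma6. Clusters were formed from the expression of these same genes, so the levels are a description and no test was made.

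Saa3, a serum amyloid A protein of the acute phase response, was at 5963 CPM in Stroma1 (95% Poisson interval 5875 to 6052, 17600 UMIs). It was at 170.3 CPM in Stroma2, 86.5 CPM in Stroma5, 62.5 CPM in Stroma4, 56.3 CPM in Stroma3 and 27.4 CPM in Stroma6. The log2 ratio over the pooled other stroma was 5.63 (95% binomial interval 5.55 to 5.71). Cxcl5, a ligand of the neutrophil receptor Cxcr2, was at 259.5 CPM (241 to 279) against 8.89 to 20.5 CPM in the 5 other clusters, a log2 ratio of 4.36 (4.10 to 4.63). C3, the central complement component, was at 548 CPM (521 to 575), followed by 157 CPM in Stroma2 and 13.3 CPM in Stroma3, the lowest. Igfbp5 was at 1073 CPM (1036 to 1111) against 62.2 CPM in Stroma5 and 323 CPM in Stroma3. Sfrp4 was at 307 CPM (288 to 328) against 162 CPM in Stroma2 and 2.96 CPM (2 UMIs) in Stroma3. Wif1 was the exception: Stroma1 had 133 CPM (121 to 147) and Stroma3 had 151 CPM (123 to 183), intervals that overlap, while Stroma2 had 1.70 CPM.

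In the stroma of the other tumors all 6 genes lay under the Stroma1 level. Saa3 was at 15.4 CPM in the regressed and 2.67 CPM in the progressed stroma, Cxcl5 at 12.8 and 21.8 CPM, and C3 at 84.9 and 44.4 CPM. Igfbp5 was at 197 and 80.8 CPM, Sfrp4 at 23.2 and 26.7 CPM, and Wif1 at 18.1 and 9.21 CPM. Among the non-stromal cells of the untreated tumor, the Tumor1 cluster had Cxcl5 at 294.6 CPM and Monocytes1 had Saa3 at 1099.9 CPM. In the Stroma3 cells of the progressed tumor, Wif1 was again high, at 150.5 CPM. These tumors also differed from each other in Xist (1494 CPM in the untreated, 1735 CPM in the progressed and 0.403 CPM in the regressed tumor), so treatment and animal cannot be told apart.

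**Figure D1:**
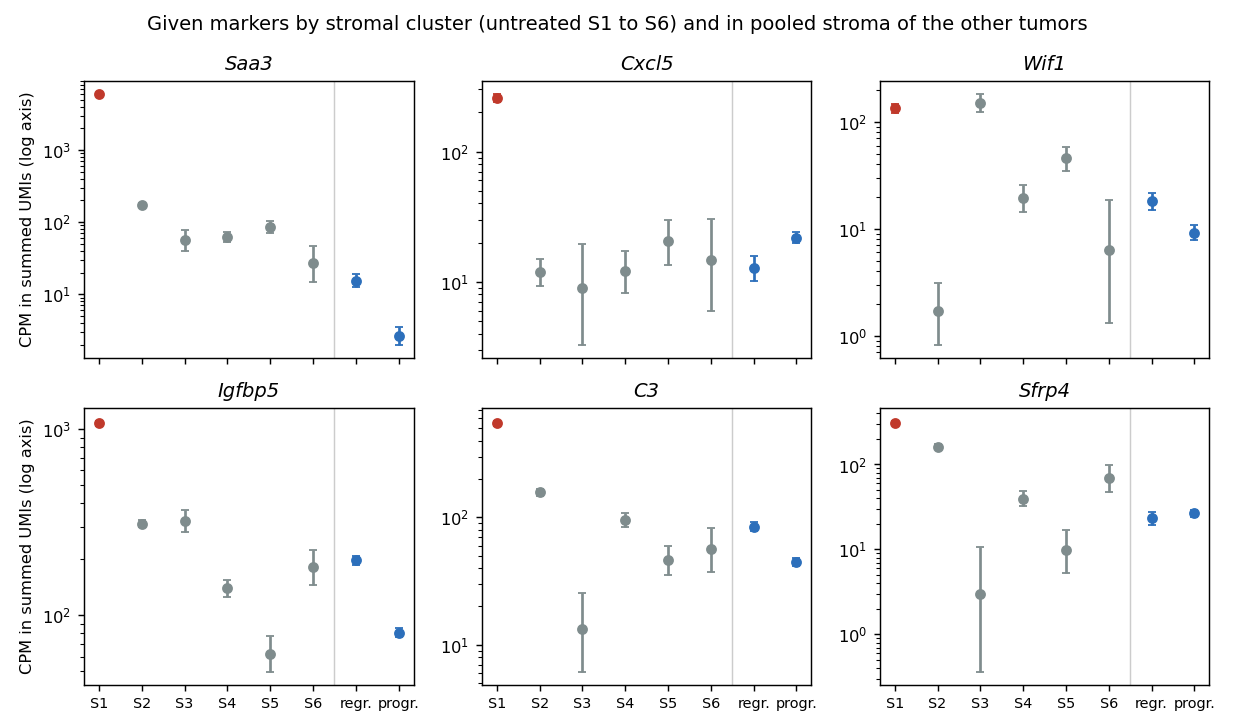
The 6 given markers, in CPM of summed UMIs on log axes with 95% Poisson intervals, in Stroma1 to Stroma6 of the untreated tumor (S1 to S6) and in the pooled stroma, Stroma1 left out, of the regressed and progressed tumors. Stroma1 (red) lies highest for Saa3, Cxcl5, Igfbp5, C3 and Sfrp4, and for Wif1 it lies beside Stroma3.

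The promoters of the markers are shown because these genes share a high level in this cluster. RefSeq windows (GRCm38.p6) were at hand for Saa3, C3, Igfbp5 and Wif1 among them, named here with Cxcl5 and Sfrp4, and for Il6, Cxcl1 and Lcn2. The 250 bases before the annotated start follow 5′ to 3′ on the strand of the gene, with motif matches in capitals. For Saa3 the start in the table lies inside the full span of the gene record.
Saa3 (chr7:46715677-46715926, minus strand): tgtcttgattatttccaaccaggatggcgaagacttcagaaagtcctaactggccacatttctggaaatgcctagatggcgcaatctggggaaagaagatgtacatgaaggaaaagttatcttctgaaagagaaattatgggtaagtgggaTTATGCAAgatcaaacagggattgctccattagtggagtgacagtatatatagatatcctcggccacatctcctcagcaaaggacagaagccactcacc
C3 (chr17:57228137-57228386, minus strand): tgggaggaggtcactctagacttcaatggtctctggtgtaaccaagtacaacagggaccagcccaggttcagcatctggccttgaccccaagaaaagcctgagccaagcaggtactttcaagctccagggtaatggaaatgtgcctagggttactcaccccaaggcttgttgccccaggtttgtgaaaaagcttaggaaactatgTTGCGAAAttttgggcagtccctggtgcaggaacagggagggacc
Igfbp5 (chr1:72874866-72875115, minus strand): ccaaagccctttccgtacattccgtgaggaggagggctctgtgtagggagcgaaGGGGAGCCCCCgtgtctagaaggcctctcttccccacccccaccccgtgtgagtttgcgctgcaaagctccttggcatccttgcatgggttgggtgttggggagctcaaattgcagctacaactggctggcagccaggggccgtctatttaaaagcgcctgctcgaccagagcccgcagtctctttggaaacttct
Wif1 (chr10:121033754-121034003, plus strand): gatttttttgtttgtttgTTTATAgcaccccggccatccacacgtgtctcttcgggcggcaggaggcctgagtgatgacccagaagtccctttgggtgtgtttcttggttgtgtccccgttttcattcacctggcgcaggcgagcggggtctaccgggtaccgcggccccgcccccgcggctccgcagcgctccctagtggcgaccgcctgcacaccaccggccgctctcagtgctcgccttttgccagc

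Both strands were searched for the C/EBP motif TTGCNNAA, the AP-1 motif TGANTCA, the TATA motif TATAAA and the usual κB consensus. A C/EBP match lay 99 to 92 bases before the start of Saa3 and 45 to 38 bases before that of C3, the capitals in those sequences. Among all 32851 promoter windows of this length, 9.56% held such a match. The capitals in Igfbp5 are overlapping κB matches 196 to 186 bases before its start, a motif present in 7.25% of all windows, and those in Wif1 are a TATA match on the other strand, present in 12.4%. Il6 held κB, C/EBP and AP-1 matches (AP-1 in 6.75% of all windows), Cxcl1 held overlapping κB matches and Lcn2 held a C/EBP match. A match is a run of letters and not a measured binding site.

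Across all features, 429 of 13531 with at least 20 UMIs in the 2 sums were more than 2-fold higher in Stroma1 than in the other stroma (3.17%), and 757 were more than 2-fold lower (5.59%). The median log2 ratio of all features was -0.06. Of the higher features, 406 had a symbol and were not mitochondrial, ribosomal, Xist, Y-linked or haemoglobin genes. Stroma1 stood above each of the 5 other clusters in 288 of these, and more than 2-fold above the next in 84.

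Among genes with at least 100 CPM in Stroma1, the 15 with the largest ratios began with Saa3 and Cxcl5. Spp1, which encodes osteopontin, was at 2205 CPM against 123 CPM (log2 4.17, interval 4.08 to 4.25), and Hp, haptoglobin, at 645 against 45.0 CPM (log2 3.84). Tnc, the matrix protein tenascin-C, was at 302 against 46.0 CPM (log2 2.71), with 215 CPM in Stroma3. Sod2, the mitochondrial superoxide dismutase, was at 639 against 109 CPM (log2 2.55), and Slpi, a leukocyte protease inhibitor, at 152 against 30.1 CPM (log2 2.34). Cxcl14, a chemokine of skin, had the highest level of the group, 7736 against 1866 CPM (log2 2.05, interval 2.02 to 2.08). The water channel Aqp1 was at 228 against 46.5 CPM and stood at 233 CPM in Stroma3. Rgcc (log2 2.97), Emb (2.59), Ptx3, a pentraxin (1.96), and the microRNA gene Mir7678 (4.11) completed the list with Wif1 (2.67) and Igfbp5 (2.15). Ptx3, at 112 CPM in Stroma1, was higher in the stroma of the progressed tumor, at 167 CPM, with 399.5 CPM in its Stroma5 cells. Mir7678 (chr2:164354313-164354383) lies within Slpi, so its reads may be those of Slpi.

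Several of these genes are also made by neutrophils, and their level there was higher than in Stroma1. Slpi was at 5089 CPM in neutrophils, Mir7678 at 3941 CPM, Spp1 at 2984 CPM, Hp at 1696 CPM and Rgcc at 467 CPM. Other clusters of this tumor exceeded Stroma1 for some of the genes as well. Aqp1 was at 2023 CPM in the blood vessel cluster and Rgcc at 602 CPM in NK/T cells. Monocytes1 had Slpi at 949 CPM and Emb at 478 CPM. The neutrophil genes S100a8 and S100a9 were detected in 29.1% and 27.6% of Stroma1 cells and in 29.2% and 27.1% of other stromal cells after every cell was thinned to 1000 UMIs. The neutrophil marker sum was lower in Stroma1 than in the other stroma, with a log2 ratio of -0.13. The part of neutrophil RNA in the level of each gene was not tested.

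The 10 genes with the lowest ratios, among those with at least 100 CPM in the other stroma, were led by Angpt2, a vascular growth factor, at 7.79 against 101.6 CPM (log2 -3.70, interval -4.37 to -3.11). Stroma4 and Stroma5 were as low, at 7.38 and 7.59 CPM. Gdf10, a BMP family member, was at 147 against 778 CPM, and Eln, elastin, at 25.4 against 129 CPM, with its highest level in Stroma3, 791 CPM. Lpl, lipoprotein lipase, was at 190.1 against 738 CPM and Myl9, a myosin light chain, at 54.2 against 203 CPM, the lowest of the 6 clusters. Slfn5, Ndufa4l2, Gfra2, Adamts12 and Gucy1a1 had log2 ratios between -1.98 and -1.66.

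Gene lists put these genes in their pathways. Of the acute phase and IL-6 family list, 15 of 17 genes had enough UMIs, 7 were more than 2-fold higher (Saa3, Saa1, Saa2, Lcn2, Hp, Lif and Il11) and 0 were more than 2-fold lower, where the background was 3.17% and 5.59%. Its sum was 10598 against 3923 CPM (log2 1.43, interval 1.41 to 1.45) and the median of its genes was 0.83. Saa3 held 56.3% of the list, and without it the log2 ratio was 0.29. Saa1 was at 609 against 178 CPM and Saa2 at 103 against 32.3 CPM, with 537 and 102 CPM in Stroma5. Saa1 and Saa2 are near-identical copies, so their uniquely mapped reads are uncertain. Il6 itself was at 243 against 137 CPM (log2 0.83). Its signalling receptor Il6st was at 355 against 273 CPM, and the feedback gene Socs3 at 1427 against 1660 CPM.

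Among neutrophil CXC chemokines, Cxcl5 was the only gene past 2-fold of the 4 tested. Cxcl1, the most abundant, was at 869 against 680 CPM (log2 0.35) and was higher in Stroma5, at 1111 CPM. Cxcl2 was at 180.2 against 139 CPM, and the list sum had a log2 ratio of 0.65 (0.60 to 0.70). That sum includes the given marker Cxcl5, with 766 of its 3869 UMIs in Stroma1, and the median of the 4 genes was 0.36. Among the other chemokines, Cxcl14, Cxcl12 and Ccl7 were more than 2-fold higher and Cxcl9, Cxcl10 and Cxcl13 more than 2-fold lower, of 11 tested, with a sum of log2 1.37 and a median of -0.30. Cxcl12, which retains leukocytes through Cxcr4, was at 2448 against 1118 CPM. The interferon-induced chemokines Cxcl9 and Cxcl10 were at 2.03 and 8.81 CPM in Stroma1 and at 103 and 339.7 CPM in Stroma6.

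Of 14 NF-κB feedback and target genes, Sod2 was more than 2-fold higher and Vcam1, a leukocyte adhesion molecule, more than 2-fold lower (101 against 230.2 CPM). The sum was at log2 0.69 (0.66 to 0.73), with the inhibitor Nfkbia at 989.6 against 536 CPM. Of 12 complement genes tested, C3 and the alternative pathway protease Cfb (546 against 266 CPM) were more than 2-fold higher. The sum was at log2 0.54 (0.52 to 0.56), and the complement inhibitor Serping1 made up 63.1% of it. This list includes the given marker C3, and the median of its genes was 0.30.

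Of 12 Wnt genes tested, the antagonists Wif1, Sfrp1 (396 against 104 CPM) and Sfrp4 were more than 2-fold higher. Dkk2, at 0 UMIs against 43, and Wnt2 were more than 2-fold lower, and Sfrp2 (46.1 against 46.9 CPM) and Dkk3 (71.5 against 72.5 CPM) were level. The sum, which includes the given markers Wif1 and Sfrp4, was at log2 1.10 (1.03 to 1.16) while the median was -0.02. The Wnt target Axin2 was at 7.11 against 6.38 CPM, from 21 UMIs. Of 8 genes of the IGF axis, Igfbp5 was more than 2-fold higher and Igfbp2 more than 2-fold lower, at 3 UMIs. Igf1 was at 493 against 423 CPM and Igfbp4 at 7144 against 4715 CPM. The sum, which includes the given marker Igfbp5, was at log2 0.45 (0.43 to 0.47) beside a median of 0.09.

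Matrix genes split by class. Collagen chains were lower in sum, 24392 against 41281 CPM (log2 -0.76, interval -0.77 to -0.75), with Col4a1, Col6a1, Col6a2, Col14a1 and Col15a1 more than 2-fold lower of 18 and 0 more than 2-fold higher. Col3a1 was at 7246 against 12371 CPM. Collagen crosslinking enzymes were level (log2 -0.01, interval -0.08 to 0.05), with 0 of 9 past 2-fold in either direction. Proteoglycans and matrix glycoproteins were level in sum (log2 -0.06), with Tnc higher and Fmod and Eln lower of 20. Matrix proteases and inhibitors were higher in sum (log2 0.87, 0.85 to 0.89), and Mmp2, Mmp3, Mmp10, Mmp13, Timp1 and Serpine2 were more than 2-fold higher of 16, with Timp3 lower. Mmp3, stromelysin-1, was at 931 against 242 CPM but at 1141 CPM in Stroma6. Mmp10 had 49 UMIs in Stroma1 and 2 in the other stroma, a log2 ratio of 6.53 (4.60 to 9.61). Serpine2, a protease inhibitor, was at 4557 against 1401 CPM. It made up 47.6% of the protease and inhibitor sum, and without it the log2 ratio was 0.38 (0.35 to 0.41), beside a median of 0.35.

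Contractile genes had a log2 ratio of -0.24 in sum, and Acta2, Tagln, Myl9 and Lmod1 were more than 2-fold lower of 9. TGF-beta target genes were at log2 -0.68, mostly Col1a1 (70.1% of the list), with 0 of 12 past 2-fold in either direction. Universal and adventitial fibroblast genes were at -0.51, with Ly6c1, Col15a1, Penk, Clec3b and Sema3c lower and Ackr3, a scavenger of Cxcl12, higher (28.5 against 7.55 CPM) of 14. Papillary and reticular dermal fibroblast genes were at 0.01, with Fabp4 lower of 8. Apoe made up 93.98% of that sum, and without it the log2 ratio was -0.72 (-0.90 to -0.54), beside a median of -0.51. Growth factors for immune and vascular cells were at 1.10 in sum but had a median of -0.40 and, without Spp1, a sum of -0.23. Csf3, the neutrophil growth factor G-CSF, was at 26.4 against 1.89 CPM (log2 3.81, interval 3.10 to 4.58), Fgf7 at 192 against 90.6 CPM, and Tslp was more than 2-fold lower.

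**Figure D2:**
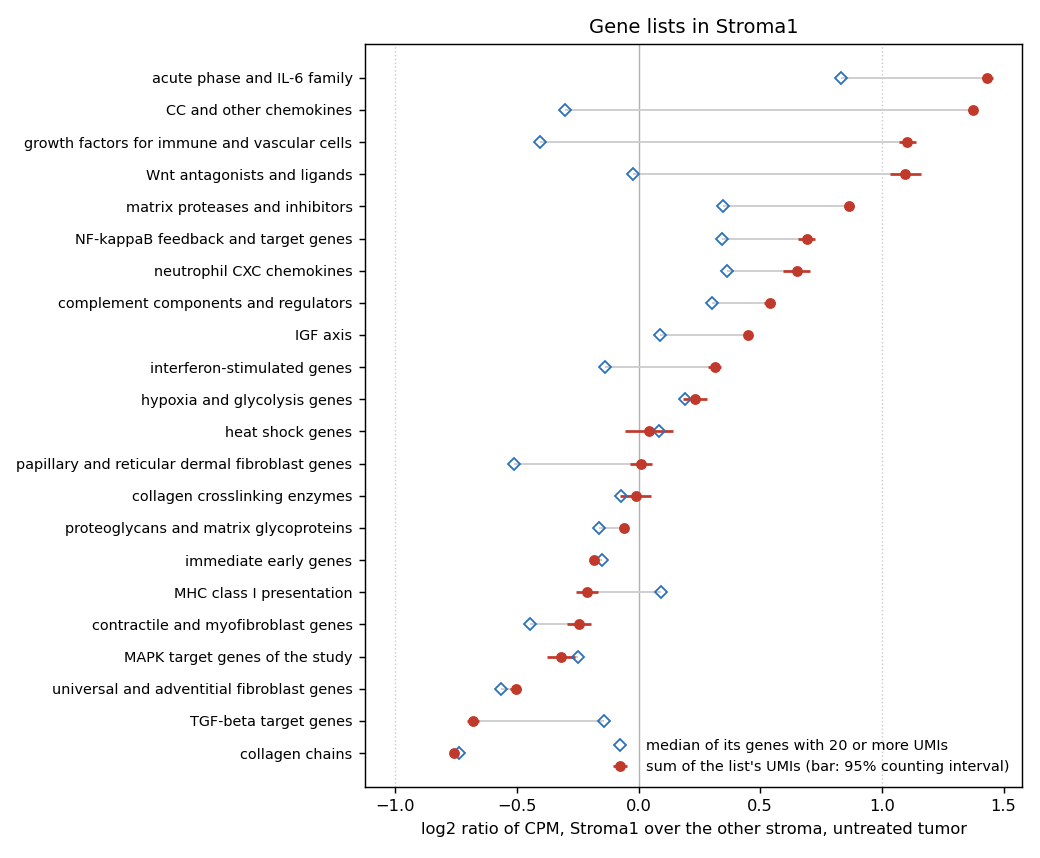
Log2 ratio of CPM, Stroma1 over the other stroma of the untreated tumor, for 22 gene lists, where circles are the ratio of the summed UMIs with 95% counting intervals, diamonds the median over the genes of a list with at least 20 UMIs, and dotted lines mark 2-fold. The acute phase list is highest (1.43, median 0.83) and collagen chains are lowest (-0.76), and the sum and median lie apart for the Wnt list (1.10 and -0.02) and the growth factor list (1.10 and -0.40).

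Over the 4508 features with at least 50 CPM in any of the 6 clusters, the profile most like Stroma1 was that of Stroma2 (Pearson r 0.92, Spearman rho 0.88), with 294 features more than 2-fold apart on the log2(CPM + 10) scale. Stroma4 followed (r 0.90, 333 features), then Stroma5 (0.88), Stroma6 (0.87) and Stroma3 (0.85, 533 features). These clusters share a library, and the correlations are across genes, which are not independent replicates. The clusters also differ in size, with 1144 cells in Stroma2, 599 in Stroma4, 165 in Stroma5, 83 in Stroma6 and 120 in Stroma3. The part of cluster size in this order was not tested.

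The marker genes were spread very unevenly over the Stroma1 cells. A UMI of Saa3 was present in 45.6% of the 472 cells, the median was 0 UMIs and the highest cell had 1398. The 48 cells with the most Saa3 held 90.9% of its UMIs. Cxcl5 was alike, with 21.0% of cells and 90.3% of UMIs in the highest 48. C3 was the most even marker, found in 78.4% of cells with 35.3% of UMIs in the highest 48, close to the 31.2% of the matrix gene Dcn. Between these lay Wif1 (72.6%), Igfbp5 (69.9%) and Sfrp4 (59.2%). Spp1 (78.9%), Hp (82.4%), Tnc (91.6%), Slpi (86.0%) and Ptx3 (85.5%) were concentrated as well, Cxcl14 less so (52.6%).

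**Figure D3:**
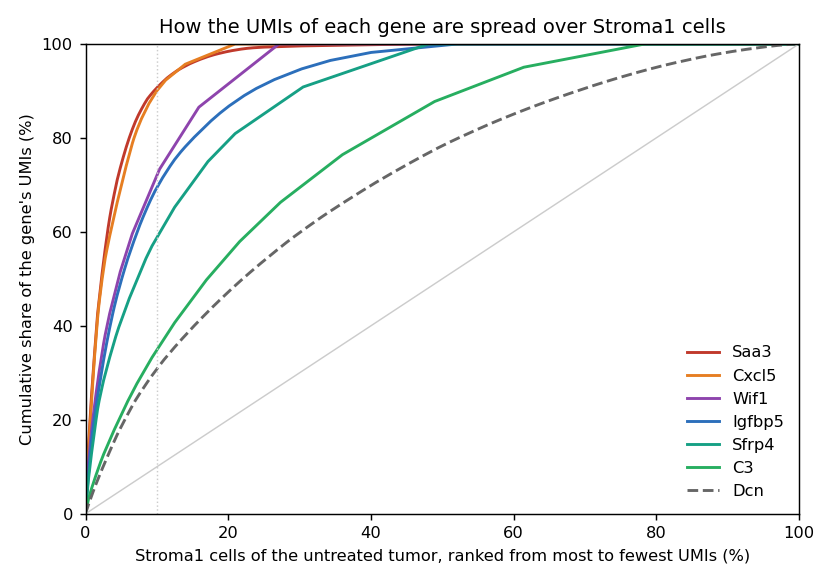
Cumulative share of the UMIs of each gene (vertical axis, %) over the 472 untreated Stroma1 cells ranked from most to fewest UMIs of that gene (horizontal axis, %). The dotted line marks 10% of cells, where Saa3 and Cxcl5 have reached 90.9% and 90.3% and C3 35.3%, beside Dcn at 31.2%, and the diagonal is an even spread.

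Shares of cells were compared after thinning to 1000 UMIs, which kept 468 Stroma1 cells and left out 4, and kept 2131 other stromal cells. Saa3 was then found in 28.2% of Stroma1 cells (24.2 to 32.5%) and 5.26% of other stromal cells. NK/T cells, which should not make it, had a UMI of Saa3 in 7.69% of 39 cells (3 cells, interval 1.62 to 20.9%). These are too few cells to tell whether the share in the other stroma was above that of background RNA. Before thinning these shares were 45.6%, 22.8% and 8 of 40 cells, at median depths of 5553.5, 4531.5 and 3380.5 UMIs. C3 was found in 40.8% of Stroma1 cells, 10.1% of other stromal cells and 0 of 39 NK/T cells after thinning. The same shares were 31.8% and 10.7% for Igfbp5, 20.7% and 7.65% for Sfrp4, 10.9% and 1.08% for Wif1, and 9.83% and 0.845% for Cxcl5, against 0, 2.56%, 2.56% and 0 in NK/T cells. Before thinning, C3 was found in 24.9% of other stromal cells, Igfbp5 in 23.5%, Sfrp4 in 21.4%, Wif1 in 4.59% and Cxcl5 in 3.06%.

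Few cells held a UMI of more than 3 of the 6 markers at this depth. Of the 468 thinned cells, 90 had a UMI of none of them, 180 of 1, 130 of 2, 49 of 3, 16 of 4, 3 of 5 and 0 of all 6. Cxcl5 was found in 21.2% of the 132 cells with Saa3 and in 5.36% of the cells without it, and Igfbp5 in 44.7% and 26.8%. C3 ran the other way, with 33.3% of the cells with Saa3 and 43.8% of those without, and Sfrp4 was at 18.9% and 21.4%.

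The unevenness was followed by dividing the cells at 3 Saa3 UMIs after thinning, a value chosen after the distribution had been seen. There were 85 such Saa3-rich cells (18.2% of 468, interval 14.8 to 22.0%) and 383 others. Near the division, 13 cells had 3 UMIs and 10 had 2, while 336 had 0, so the division cuts a per-cell level, and the Saa3-rich cells are not called a type. Whether they form a separate state was not tested. They held 96.8% of the Saa3 UMIs of Stroma1 and were deeper, with a median of 8391 UMIs against 5153. At the same threshold 11 of 2131 other stromal cells (0.516%), 25 of 219 Monocytes1 cells (11.4%), 8 of 383 neutrophils (2.09%), 1 of 304 macrophages and 0 of 39 NK/T cells were Saa3-rich. In the regressed and progressed stroma the counts were 3 of 1732 and 1 of 3400.

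Of 10165 features tested, with Saa3 left out, 277 were more than 2-fold higher in the Saa3-rich cells (2.73%) and 636 more than 2-fold lower (6.26%). Saa3 was at 23148 CPM in them and at 251 CPM in the other Stroma1 cells. Spp1 was at 5109.6 against 1240.3 CPM (log2 2.04, interval 1.97 to 2.11), Tnc at 765 against 148 CPM (2.37), Mmp3 at 2017 against 571 CPM (1.82) and Cxcl5 at 613 against 142 CPM (2.11). Mmp12, a macrophage elastase, was at 144 against 10.8 CPM, and the monocyte chemokine Ccl2 at 1068 against 286 CPM. The antimicrobial genes Slpi (417 against 64.2 CPM), Reg3g (211 against 37.1) and Defb6 (116 against 15.8) were higher as well. Csf3 was at 89.7 against 5.42 CPM. Sod3, Saa2, Col12a1, Ccn5, Crispld2 and Mir7678 completed the 15 highest, at log2 ratios from 1.77 to 3.15.

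The genes lower in the Saa3-rich cells included Clec3b, which encodes tetranectin, at 23.1 against 297 CPM (log2 -3.68, interval -4.47 to -2.99), the enkephalin precursor Penk at 25.8 against 161 CPM, and Tnxb, tenascin-X, at 27.2 against 116 CPM. The endothelial adhesion gene Sele was at 20.4 against 114 CPM, and Itih5, Meg3, Pik3r1, Lrp4, Dact1 and Gdf10 had log2 ratios between -2.05 and -1.60. C3 was at 415 against 592 CPM (log2 -0.51, interval -0.70 to -0.33) and Sfrp4 at 169.9 against 353 CPM (-1.06, -1.34 to -0.78). Sfrp5 was at 2.72 against 78.2 CPM. The complement list stood at log2 -0.14, the Wnt list at -0.44 and the universal fibroblast list at -1.01 between these groups of cells. The acute phase list stood at 2.49, but it includes Saa3, on which the cells were divided. Saa3 made up 17029 of the 20362 UMIs of that list in the Saa3-rich cells, so this ratio was largely set by the division. Collagen chains were at 0.23. Immediate early genes were at -0.77, with Fos at 3024 against 5111 CPM. The parts of depth and of handling stress in these differences were not tested.

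The remaining cells supplied 2212305 of the Stroma1 UMIs, so ratios without the Saa3-rich cells are not independent of those above. All 15 of the higher named genes and all 10 of the lower ones, which were picked for their ratios, stayed past 2-fold, and 360 features were more than 2-fold higher of 13405 (2.69%) and 774 lower (5.77%). Saa3 had a log2 ratio of 1.06 over the other stroma (interval 0.91 to 1.20). The remaining cells had Spp1 at 3.34, Cxcl5 at 3.49, Hp at 3.43, Wif1 at 2.55, C3 at 2.07, Igfbp5 at 1.95, Cxcl14 at 1.80 and Sfrp4 at 1.76. The acute phase list stood at 0.33 in place of 1.43, a fall that was fixed by leaving out cells chosen for Saa3, which held 56.3% of the list. Over all Stroma1 cells that list stood at 0.29 with Saa3 left out. The Wnt list stood at 1.19 and the complement list at 0.57 in the remaining cells. These levels were reached without the cells that held 96.8% of the Saa3 UMIs.

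**Figure D4:**
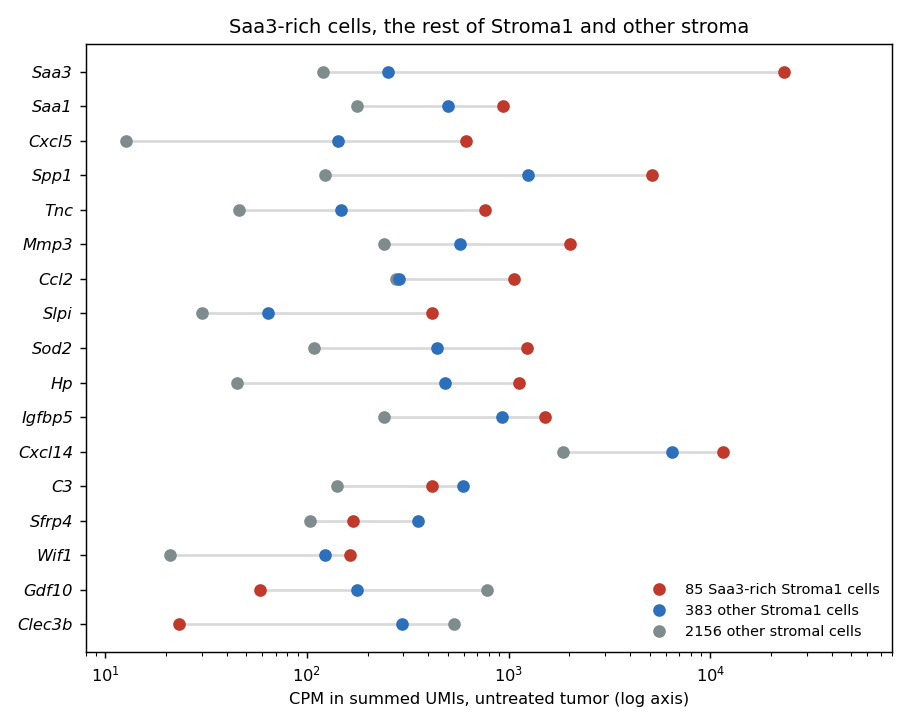
CPM of summed UMIs on a log axis for named genes in the 85 Saa3-rich Stroma1 cells (red), the 383 other Stroma1 cells (blue) and the 2156 other stromal cells (grey) of the untreated tumor. Saa3 falls from 23148 to 251 and 120.4 CPM, C3 and Sfrp4 are highest in the other Stroma1 cells, and Clec3b and Gdf10 fall from the other stroma to the Saa3-rich cells.

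Within the untreated tumor Stroma1 held 11.5% of cells and 13.3% of all UMIs. It held 84.3% of the UMIs of Saa3 (interval 83.8 to 84.8%), 77.4% of those of Cxcl5, 58.2% of Wif1, 53.9% of Tnc and 52.5% of Igfbp5. For C3 the share was 46.6%, for Cxcl14 45.7%, for Spp1 45.2% and for Sfrp4 41.9%. Shares nearer to that of all UMIs were found for Il6 (29.1%), Cxcl1 (22.8%), Ccl2 (17.0%) and Csf3 (15.8%), and Cxcl2 was mostly in neutrophils (78.2%) with 0.917% in Stroma1. Neutrophils also held 43.7% of Hp and 31.5% of Spp1. The cells captured by dissociation set these shares, and a share of UMIs is not a share of protein.

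RNA of the receptors Cxcr2, Csf3r, Fpr2, C3ar1, C5ar1, Ccr2 and Cd44 was found mainly in other cells. Il6st and Ackr3 were highest in Stroma1 among the 5 groups of cells. Cxcr2, the receptor of Cxcl5 and Cxcl1, was at 447 CPM in neutrophils and 1.02 CPM (3 UMIs) in Stroma1. Csf3r was at 579.9 CPM in neutrophils, and Fpr2, a receptor reported for serum amyloid A, was at 249 CPM in neutrophils and 24.3 CPM in monocytes and macrophages. The receptor of complement fragment C3a, C3ar1, was at 172 CPM in monocytes and macrophages with 0 UMIs in neutrophils, and C5ar1 was at 769.9 CPM in neutrophils. Ccr2, the receptor of Ccl2 and Ccl7, was at 841 CPM in monocytes and macrophages. Cd44, a receptor of osteopontin, was at 525 CPM in neutrophils, 444 CPM in monocytes and macrophages and 114 CPM in Stroma1. Il6st was highest in Stroma1 among the 5 groups of cells, at 355 CPM, while Il6ra had 14 UMIs there (4.74 CPM). Ackr3 was at 28.5 CPM in Stroma1, 18.7 CPM in all other cells and 7.55 CPM in the other stroma. The blood vessel cluster, a part of all other cells, had Ackr3 at 30.8 CPM, above Stroma1. The integrin chain Itgav was at 49.5 CPM in Stroma1, 59.9 CPM in the other stroma, 45.6 CPM in monocytes and macrophages and 19.1 CPM in neutrophils.

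**Figure D5:**
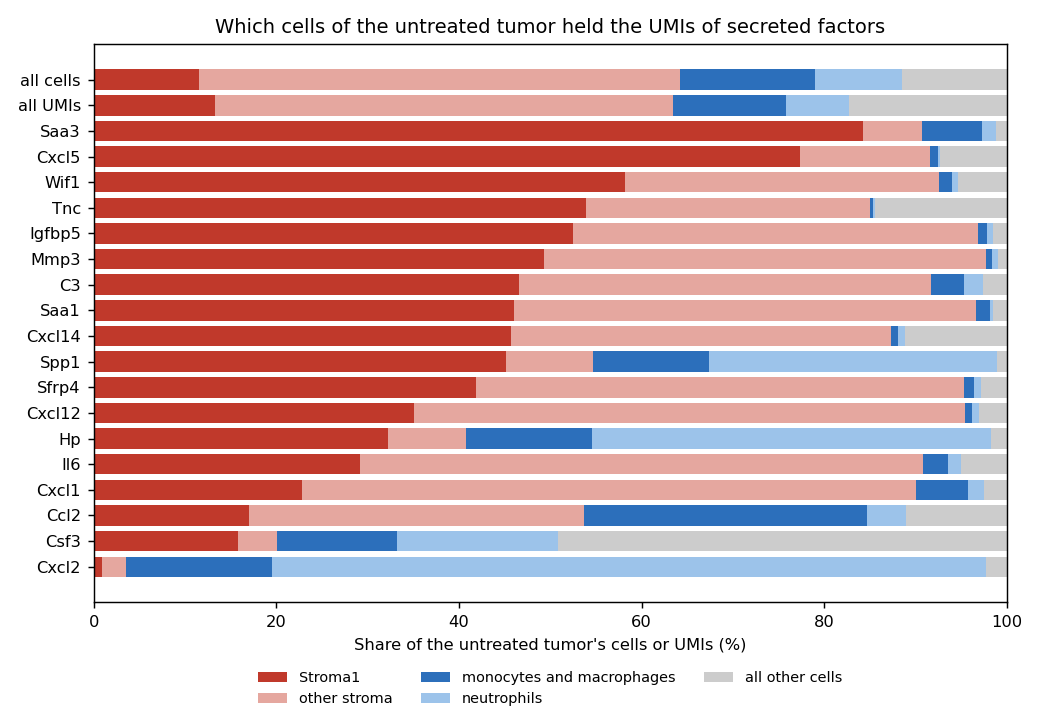
Share of the cells, of all UMIs and of the UMIs of 18 genes of secreted proteins (%) held by Stroma1, the other stroma, monocytes and macrophages, neutrophils and all other cells of the untreated tumor. Bars sum to 100%, and Stroma1 (dark red) ranges from 84.3% of Saa3 to 0.917% of Cxcl2, beside 13.3% of all UMIs.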

How the data were processed

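Messenger RNA of single cells was counted in 3 tumors, 1 per group, by a droplet method that reads transcript 3' ends. According to the study's methods, the authors aligned reads to GRCm38 with GSNAP, counted uniquely mapped sense reads over exons as UMIs, removed cells under 300 UMIs, and clustered with Seurat 2.2.0. The annotation release is not given in the sources used here. The deposited count tables hold these raw UMI counts, and the cluster names (unit: other) are those the authors deposited. Of 36530 features, 31051 matched a symbol or reporter name in the RefSeq table of GRCm38.p6, and 5479 kept their number. Summed counts of Stroma1 exceeded its deposited totals by 4.93%, for a reason that was not found. Cell names shared between libraries numbered 0, but they are running numbers, so shared barcodes could not be counted. No doublet caller was run.

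UMIs were summed per group of cells and scaled to 1000000 (CPM) with 95% exact Poisson intervals. Ratios carry exact conditional binomial intervals, with a sum of 0 set to 3 UMIs, and shares carry Clopper-Pearson intervals, all covering counting error only. Features needed 20 UMIs in the sums compared. Cells are not replicates and clusters were formed from the genes compared, so no p-value is given. Named genes are the given markers, list members, the 15 highest ratios among genes with 100 CPM in Stroma1 and the 10 lowest among genes with 100 CPM in the other stroma. Mitochondrial, ribosomal, Xist, Y-linked and haemoglobin genes were kept apart. The same rule was used for Saa3-rich cells. The members, the 22 gene lists and the 16 marker lists were chosen with earlier results of these data known. The secreted factors, the receptors and the Saa3 division were chosen after seeing values. The ratio and its interval were tested on simulated sums that held counting error only, without the unevenness between cells seen here. The thinning (seed 1) was tested on Stroma1 cells of these data. Python 3.11.15 was used with numpy, scipy and pandas, and edgeR supplied TMM factors. Alternatives were TMM scaling, thinning, other minimums, other comparison groups and cells left out. Part of the genotype and a marker gene are not reported here.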

Additional observations from a re-analysis of the deposited data

How the results depend on the processing

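None of the 189 values of the 27 given markers and genes with the most extreme ratios changed sign. Most of these genes were picked for ratios far from 0, so a change of sign was unlikely from the start. The size of a ratio could change much: Saa3 stood at log2 5.63 over all Stroma1 cells and at 1.06 without the Saa3-rich cells, which were chosen for it. Of 154 list values, the heat shock list, at 0.04 with an interval that includes 0, changed sign without the 5% deepest cells (-0.02) and without the Saa3-rich cells (-0.0054). Other single members of the lists are not among these values. With at least 50 UMIs required, 241 features were more than 2-fold higher and 467 lower, and with 1 UMI in each sum 1564 were higher. The number of features tested changes with the minimum, so these counts cannot be set against the 429 and 757 of 13531 features as shares. The acute phase list stood at log2 1.18 after thinning, 1.37 without the 5% deepest cells and 1.29 without cells holding a UMI of another cell type. It stood at 1.58 with equal weight per cluster and at 0.33 without the Saa3-rich cells, which were chosen for a gene of this list. Under the first 3 of these alternatives the neutrophil CXC list stood at 0.48, 0.56 and 0.42, and at 0.38 without the Saa3-rich cells. The complement list stood at 0.96 with equal weight and 0.57 without the Saa3-rich cells. The Wnt list stood at 1.34, 1.22, 1.29, 1.24 and 1.19 in the order of the acute phase list. The IGF list stood at 0.42 after thinning, 0.48 without the deepest cells and 0.53 with equal weight. Of all untreated cells, in place of stromal ones, Stroma1 was 11.5%. With 5 in place of 3 Saa3 UMIs, 12.8% of Stroma1 cells were Saa3-rich. The alternatives that leave out the Saa3-rich cells or move their division were chosen after seeing the data, and the causes were not tested. No paired analysis was possible because each group holds 1 tumor. Alternatives between tumors were not run, since only the untreated tumor had 50 Stroma1 cells. Depth limits genes of few UMIs, such as Mmp10, Axin2 and Fosl1.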

Other observations

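Lists of interferon, antigen presentation, stress and hypoxia genes had log2 sums between -0.21 and 0.31, Stroma1 over the other stroma of the untreated tumor. Interferon-stimulated genes were at log2 0.31 in sum, of which Ifitm3 made up 89.7%, and without it at -0.32, with Ifit3, Iigp1 and Rsad2 more than 2-fold lower of 12. These genes were highest in Stroma6, where Ifit3 reached 367 CPM against 18.0 CPM in Stroma1. MHC class I genes were at -0.21, with H2-K1 at 153 against 154 CPM and H2-D1 at 286 against 287 CPM, and 0 of 8 past 2-fold. B2m made up 55.6% of that sum, and without it the log2 ratio was 0.09 (0.02 to 0.16), beside a median of 0.09. Immediate early genes were at -0.18 with Egr2 lower of 15, heat shock genes at 0.04 with 0 of 7 past 2-fold, and hypoxia and glycolysis genes at 0.23 with 0 of 13 past 2-fold.

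The 9 MAPK target genes that the study used as a score were at log2 -0.32 in sum, of which Phlda1 held 72.9%, and at -0.79 (-0.90 to -0.68) without it. Dusp6, a phosphatase induced by ERK, was at 73.9 against 183 CPM (log2 -1.31, interval -1.52 to -1.11) and Spry2 at 61.3 against 115 CPM. Fosl1, a Fos family factor, was more than 2-fold higher, at 8.13 against 1.17 CPM from 24 and 13 UMIs, and in the Saa3-rich cells it was at 17.7 against 4.97 CPM in the other Stroma1 cells.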
